A study of Homo sapiens with 40 samples.

Results

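A set of 37 genes that mark mesenchymal cells or build the extracellular matrix was followed in A549 cells with and without a disrupted SETDB1 gene. The genes were chosen by name, with earlier results of these data known. Each was found in the deposited count table of 62486 genes by Ensembl identifier. They comprised 2 cadherins, 6 transcription factors, 8 collagen chains, 4 matrix glycoproteins, 5 proteases and matrix enzymes, 5 cytoskeletal genes, and 7 ligands, receptors and surface proteins. S100A4, a calcium-binding protein, was grouped with the cytoskeletal genes. A549 is an established line from a human lung adenocarcinoma, and all cells were grown in DMEM with 10% FBS. The 2 groups were control cells and SETDB1 knockout (KO) cells. The KO was made by CRISPR/Cas9 with guides cloned into the PX458 plasmid. RNA-seq held 3 libraries per group, from stranded total RNA, among 40 samples that also covered ChIP-seq and Hi-C. Whether the KO cells were 1 clone or a pool, and whether libraries came from separate cultures, is not given in the labels, so p-values measure the spread between these libraries, which may be technical.

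Mesenchymal genes are those that epithelial cells switch on when they lose their junctions and become motile, a programme called epithelial-mesenchymal transition. Transcription factors of the SNAI, ZEB and TWIST families repress E-cadherin and other junction genes. The matrix genes encode the fibrous collagens, the glycoproteins that link them to cells, and the enzymes that crosslink or cut them. Integrins are receptors through which cells bind that matrix, and transforming growth factor beta (TGF-beta) is a classical inducer of the programme. A549 cells respond to TGF-beta with such a transition and are widely used to study it. SETDB1, the disrupted gene, encodes an enzyme that methylates lysine 9 of histone H3 in silenced chromatin.

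Library totals ranged from 18065062 to 48364919 counts, and the deepest was KO replicate 2. SETDB1 was measured at 37.5, 39.6 and 38.7 CPM (read counts scaled to a common, TMM-normalised library total) in the control libraries and at 23.4, 21.2 and 21.1 CPM in the KO libraries (log2 fold change -0.82, SE 0.060, edgeR adjusted p 1.7e-12). Each KO library lay below each control library. The epithelial keratins KRT7, KRT8 and KRT18 were present in all 6 libraries, and the summed level of 6 epithelial markers ranged from 4460 to 4883 CPM in control and from 10821 to 11625 CPM in KO. Of markers of other cells, DCN (fibroblasts) and CD3E (T cells) were at 0 in all 6 libraries, and PTPRC (blood cells) had no count in KO. The summed fibroblast markers, 3 genes, were at 1.31 to 1.55 CPM in control and 0.262 to 0.487 CPM in KO. The 2 smooth muscle markers summed to 1.21 to 1.66 CPM in control and 0.917 to 1.69 CPM in KO. Summed endothelial markers, of which 4 of 5 were in the table, were at 0.297 to 0.412 CPM in control and 4.15 to 5.40 CPM in KO, most of it from CDH5 (0.289 ± 0.083 and 4.53 ± 0.67 CPM; SD, n = 3), while VWF stayed at or under 0.085 CPM. The summed blood cell markers were at 5.95 to 6.63 and 4.32 to 5.88 CPM, most of it from CD14.

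The 37 genes did not move one way between control and KO cells. The gelatinase MMP2 and its activator MMP14, the matrix protein SPARC, the transcription factor SNAI2 and the collagen chains COL6A2 and COL3A1 rose at least 2-fold. Fibronectin (FN1), the surface glycoprotein THY1, the transcription factor ZEB2 and the crosslinking enzyme LOX fell at least 2-fold. Of the cytoskeletal members, VIM, ACTA2, TAGLN and CALD1 did not pass the test. S100A4, grouped with them, passed as lower (log2 fold change -0.24). Of the 37 genes, 30 passed the filter on low counts; of these, 10 rose, 11 fell and 9 did not pass (edgeR's quasi-likelihood test, Benjamini-Hochberg adjusted p under 0.05 over 17767 genes). The background was high: 62.8% of all tested genes passed, 32.8% as higher and 30.0% as lower. The share of tested members that passed, 70.0%, is near that background, so the count itself is no result about these genes. Changes of at least 2-fold were found for 10 of the 30 (33.3%), against 14.7% of all tested genes, 9.86% higher and 4.85% lower. The members were chosen with earlier results of these data known, so this excess is no independent result. SNAI2 and COL3A1 passed the filter through their KO libraries alone and so had to differ; without them, 8 of 28 (28.6%) changed at least 2-fold, 4 higher and 4 lower. The CPM of control and KO did not overlap for 20 of the 30 (66.7%), against 65.8% of all tested genes. The median log2 fold change of the 30 was -0.00, against 0.00 over all tested genes. In bulk RNA, a change in the number of cells that express a gene and a change in the RNA per cell cannot be told apart.

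**Figure D1:**
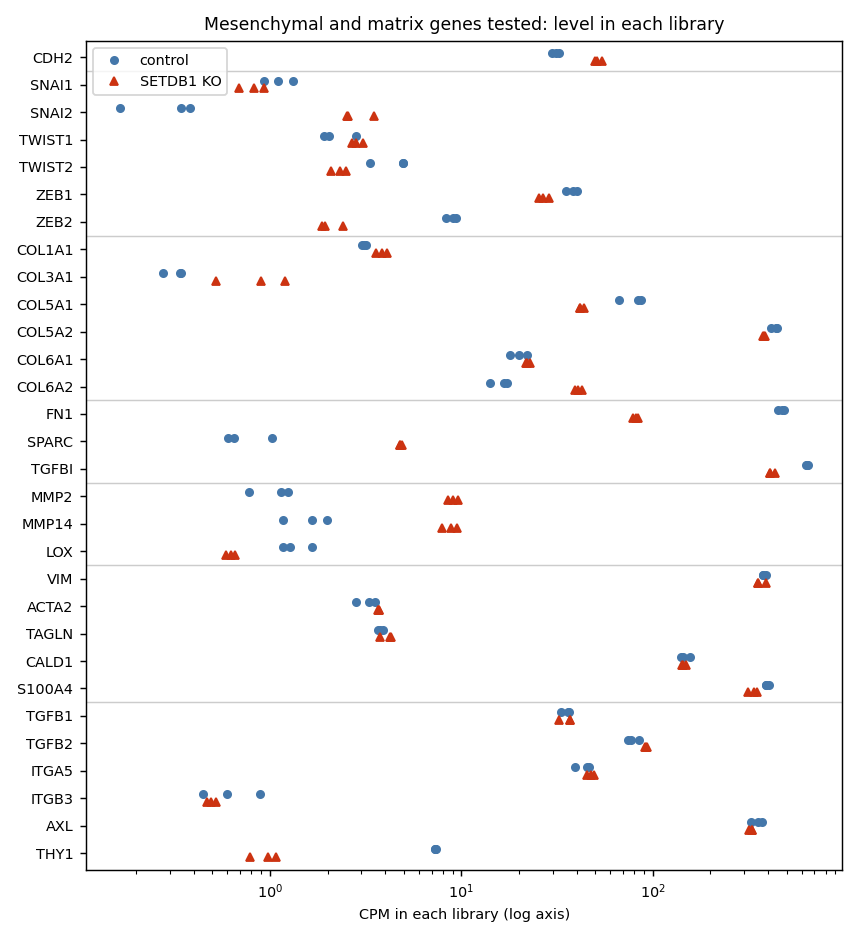
CPM of the 30 tested genes in each of the 6 libraries on a log axis, with circles for control and triangles for KO, and lines between groups of genes by role. MMP2, MMP14 and SPARC lie to the right in KO, FN1, THY1 and ZEB2 to the left, and VIM and CALD1 overlap.

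The genes did not weigh equally in the reads. Summed over the 37 genes, the level was 3201 ± 34.6 CPM in control and 2466 ± 15.8 CPM in KO (SD, n = 3). FN1 made up 53.1% of that net change and TGFBI 29.9%. The genes that rose most in relative terms were scarce in control: MMP2, MMP14, SPARC and SNAI2 were each under 2 CPM in each control library. Of the 21 genes that passed, 17 did so in the same direction under all 16 other ways of fitting the counts that were run and that tested them. The 17 include SNAI2 and COL3A1, which passed the filter through KO alone. COL1A1, COL6A1 and AXL lost the call in some fits and COL5A2 changed sign in 1. 

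Promoter sequences are shown for the members that changed at least 2-fold, since they moved in opposite directions and the sequences let a reader compare their base composition. A RefSeq table on GRCh38.p14 held 22 of the 37 members and 6 of these 10 genes, COL6A2, SPARC and MMP14 (higher in KO) and ZEB2, FN1 and LOX (lower in KO). Each line gives the 250 bases before the annotated start, 5' to 3' on the strand of the gene, in lower case. Capitals mark a TATA box (TATAAA, gene strand only) and, on either strand, a GC box (GGGCGG), an AP-1 site (TGANTCA), a cyclic AMP response element (CRE, TGACGTCA), a CCAAT box (CCAAT) or an E-box (CACCTG, the letters that SNAI and ZEB proteins bind). The positions are on GRCh38.p14 and were not set against the deposited peaks, which are on hg19.
COL6A2 (chr21:46097862-46098111, + strand): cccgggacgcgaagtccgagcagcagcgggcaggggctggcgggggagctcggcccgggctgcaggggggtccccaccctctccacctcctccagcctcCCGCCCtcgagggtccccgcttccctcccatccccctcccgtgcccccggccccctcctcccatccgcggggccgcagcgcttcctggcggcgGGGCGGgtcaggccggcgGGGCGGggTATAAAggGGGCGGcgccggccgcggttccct
SPARC (chr5:151686916-151687165, - strand): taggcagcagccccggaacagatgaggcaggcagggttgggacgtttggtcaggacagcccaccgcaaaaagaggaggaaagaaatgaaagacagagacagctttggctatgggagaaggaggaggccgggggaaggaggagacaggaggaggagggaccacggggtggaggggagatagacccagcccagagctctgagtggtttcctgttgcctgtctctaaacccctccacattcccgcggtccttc
MMP14 (chr14:22836335-22836584, + strand): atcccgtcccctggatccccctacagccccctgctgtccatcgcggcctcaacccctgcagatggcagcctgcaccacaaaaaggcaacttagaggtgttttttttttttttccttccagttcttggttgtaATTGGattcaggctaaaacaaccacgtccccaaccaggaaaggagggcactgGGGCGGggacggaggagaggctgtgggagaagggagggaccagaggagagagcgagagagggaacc
ZEB2 (chr2:144520120-144520369, - strand): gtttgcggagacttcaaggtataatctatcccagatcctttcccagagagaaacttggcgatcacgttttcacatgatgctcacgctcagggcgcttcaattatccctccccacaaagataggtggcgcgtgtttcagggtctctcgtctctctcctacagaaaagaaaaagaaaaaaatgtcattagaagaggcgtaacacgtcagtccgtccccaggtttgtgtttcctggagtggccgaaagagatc
FN1 (chr2:215436069-215436318, - strand): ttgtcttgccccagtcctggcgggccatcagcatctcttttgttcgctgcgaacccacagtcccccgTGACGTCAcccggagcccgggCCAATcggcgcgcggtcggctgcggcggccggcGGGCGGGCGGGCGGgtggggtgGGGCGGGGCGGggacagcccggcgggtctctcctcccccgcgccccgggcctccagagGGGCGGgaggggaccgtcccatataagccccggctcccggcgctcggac
LOX (chr5:122078260-122078509, - strand): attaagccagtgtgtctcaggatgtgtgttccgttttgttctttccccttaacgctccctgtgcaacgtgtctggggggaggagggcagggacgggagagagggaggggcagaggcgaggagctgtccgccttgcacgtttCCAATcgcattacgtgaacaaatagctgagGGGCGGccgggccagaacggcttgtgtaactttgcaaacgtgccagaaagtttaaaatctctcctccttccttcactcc
The windows of genes that rose did not share one composition. COL6A2 held 28 CpG pairs, a TATA box at -32 and 4 GC boxes, while SPARC and MMP14 held 7 CpG pairs each, and SPARC had none of the motifs. Among genes that fell, FN1 held 32 CpG pairs, 6 GC boxes of which several overlap one another, a CRE at -183 and a CCAAT box at -162. ZEB2 held 12 CpG pairs and none of the motifs. LOX held 13 CpG pairs, with a GC box at -79 and a CCAAT box at -109, and MMP14 likewise had a GC box at -66 and a CCAAT box at -118. No match overlapped a match of another motif. The median over 27305 RefSeq promoters was 11 CpG pairs. GC boxes were found in 42.3% of those windows, CCAAT boxes in 33.0%, E-boxes in 17.5%, TATA boxes in 7.17%, AP-1 sites in 6.6% and CREs in 1.77%. The E-box letters were in 0 of the 6 windows and in 3 of the 22 members with an entry, S100A4, ZEB1 and AXL. A match describes these letters only.

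Of the 6 transcription factors, 1 rose, 3 fell and 2 did not pass. SNAI2 (Slug, a zinc finger repressor of E-cadherin; ENSG00000019549, chromosome 8) was at 0.382, 0.166 and 0.344 CPM in control and at 3.49, 2.56 and 2.54 CPM in KO. It was low in all control libraries, with 9, 3 and 10 counts, and the groups did not overlap. Its log2 fold change was 3.16 (SE 0.26, edgeR adjusted p 2.5e-11), and 2.94 to 3.33 when each library was left out in turn. As SNAI2 passed the filter through KO alone, neither the p nor this range is separate support for a difference. Its paralog SNAI1 (Snail) was at 1.32, 1.10 and 0.927 CPM in control and 0.829, 0.690 and 0.936 CPM in KO. The groups of SNAI1 overlapped, and its log2 fold change of -0.49 (95% interval of 1.96 SE, -0.96 to -0.01) did not pass after adjustment (edgeR adjusted p 0.082). Without control replicate 3 it passed, at -0.63 (edgeR adjusted p 0.0496, over a range of 0.0496 to 0.42 across its alternatives).

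Both ZEB factors fell, by unequal amounts. ZEB2 (a zinc finger homeobox repressor; ENSG00000169554, chromosome 2) was at 9.005, 9.33 and 8.31 CPM in control and 1.88, 1.95 and 2.41 CPM in KO, which is 4.31-fold lower (log2 fold change -2.11, SE 0.12, edgeR adjusted p 8.7e-15). ZEB1, its paralog on chromosome 10, was at 40.2, 38.4 and 35.1 CPM in control and 28.7, 25.6 and 26.9 CPM in KO. Each KO library was below each control library for both genes. The log2 fold change of ZEB1 was -0.49 (SE 0.062, edgeR adjusted p 9.6e-08).

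Of the basic helix-loop-helix factors, TWIST2 fell and TWIST1 did not pass. TWIST2 (chromosome 2) was at 3.31, 4.97 and 4.98 CPM in control and 2.49, 2.33 and 2.09 CPM in KO (log2 fold change -0.93, SE 0.15, edgeR adjusted p 6.7e-06). Control replicate 1 was the lowest control library and still lay above the KO libraries. TWIST1 (chromosome 7) was at 2.80, 2.04 and 1.92 CPM in control and 3.06, 2.82 and 2.67 CPM in KO, with overlap. Its log2 fold change was 0.34 (edgeR adjusted p 0.066). Without control replicate 1 it was 0.53 (edgeR adjusted p 0.0090, over a range of 0.0090 to 0.34 across its alternatives), and it also passed with library size only (0.37) and with the replicate number as a block (0.34, edgeR adjusted p 0.0495).

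Of the cadherins, which join cells through calcium-dependent contacts, CDH2 (N-cadherin, the mesenchymal form; ENSG00000170558, chromosome 18) rose. It was at 32.4, 31.4 and 29.7 CPM in control and 50.03, 50.9 and 54.0 CPM in KO. The groups did not overlap, and the log2 fold change was 0.73 (SE 0.055, edgeR adjusted p 3.8e-12). CDH1 (E-cadherin, the epithelial form) rose as well, from 27.1 ± 0.78 to 52.4 ± 1.32 CPM (SD, n = 3; log2 fold change 0.95, edgeR adjusted p 8.4e-15). CDH11, a cadherin of mesenchymal and bone cells, had 1 count in control and 0 in KO and was not tested.

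The collagens formed no common pattern. COL6A2 (a chain of type VI collagen, which forms beaded microfibrils; ENSG00000142173, chromosome 21) was at 14.1, 16.7 and 17.4 CPM in control and 39.3, 42.7 and 40.9 CPM in KO. This was 2.55-fold higher (log2 fold change 1.35, SE 0.069, edgeR adjusted p 8.2e-16), with no overlap. COL6A1, the neighbouring partner chain on the same chromosome, was at 17.9, 22.0 and 20.0 CPM in control and 22.1, 22.8 and 21.7 CPM in KO. The groups of COL6A1 overlapped, and its log2 fold change was 0.16 (95% interval 0.03 to 0.30, edgeR adjusted p 0.045; 0.013 to 0.28 over 16 alternatives). It did not pass when any library but control replicate 2 was left out, and was 0.10 without control replicate 1. The third chain, COL6A3, had 5, 3 and 9 counts in control and 8, 16 and 4 in KO and was not tested.

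Type V collagen, which regulates fibril diameter, was lower in KO in both measured chains. COL5A1 (ENSG00000130635, chromosome 9) was at 66.9, 86.4 and 83.5 CPM in control and 41.8, 43.6 and 41.9 CPM in KO. Control replicate 1 stood below the other controls, and the groups did not overlap. The log2 fold change of COL5A1 was -0.89 (SE 0.081, edgeR adjusted p 7.8e-07). COL5A2 (ENSG00000204262, chromosome 2) was at 413, 440 and 444 CPM in control and 386, 383 and 376 CPM in KO (log2 fold change -0.18, SE 0.041, edgeR adjusted p 4.2e-04). That is less than the shift of its chromosome, as given below.

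Of the chains of the main fibrillar collagens, COL1A1 (chromosome 17) was at 3.19, 3.04 and 3.09 CPM in control and 4.10, 3.83 and 3.56 CPM in KO. The groups did not overlap, but the call was near the threshold (log2 fold change 0.30, SE 0.13, edgeR adjusted p 0.041; 0.026 to 0.22 over 16 alternatives). It did not pass when any library but KO replicate 3 was left out (edgeR adjusted p 0.059 to 0.098. COL1A2, which forms type I collagen together with COL1A1, had 0 counts in all 6 libraries. With 165251173 counts in all, a count of 0 allows up to 0.0181 CPM over the pooled libraries (3 counts, counting error only). COL3A1 (type III collagen, chromosome 2) had 8, 5 and 10 counts in control, or 0.340, 0.276 and 0.344 CPM, and 0.524, 0.893 and 1.20 CPM in KO. It was higher in all KO libraries (log2 fold change 1.42, SE 0.34, edgeR adjusted p 6.1e-04), at a level that stayed near 1 CPM. COL3A1 passed the filter through KO alone, so this p is no separate support for a difference.

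The matrix glycoproteins held the change with the most reads. FN1 (fibronectin, which links collagens to integrins; ENSG00000115414, chromosome 2) was at 486, 475 and 453 CPM in control and at 84.1, 78.6 and 81.6 CPM in KO. The KO libraries were 5.80-fold lower (log2 fold change -2.54, SE 0.045, edgeR adjusted p 2.3e-26), and only 0.557% of tested genes had a lower log2 fold change. TGFBI (a secreted protein induced by TGF-beta that binds collagen and integrins; ENSG00000120708, chromosome 5) was at 632, 639 and 648 CPM in control and 412, 436 and 411 CPM in KO. Its groups lay far apart relative to their spread (log2 fold change -0.61, SE 0.040, edgeR adjusted p 2.4e-13).

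SPARC (osteonectin, a collagen-binding protein that regulates cell-matrix contacts; ENSG00000113140, chromosome 5) moved the other way. It was at 1.02, 0.607 and 0.653 CPM in control and 4.89, 4.77 and 4.77 CPM in KO. The 3 KO libraries were nearly equal and above all controls (log2 fold change 2.65, SE 0.18, edgeR adjusted p 2.5e-13). POSTN (periostin) had 2 counts in 1 control library and none elsewhere, and was not tested.

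The 2 measured gelatinase-pathway proteases rose together. MMP2 (gelatinase A, which cuts denatured collagen and basement membrane; ENSG00000087245, chromosome 16) was at 1.15, 0.773 and 1.24 CPM in control and 9.04, 9.64 and 8.56 CPM in KO. It was 8.41-fold higher (log2 fold change 3.07, SE 0.14, edgeR adjusted p 1.0e-16), and 97.1% of tested genes had a lower log2 fold change. MMP14 (a membrane-bound metalloproteinase that activates pro-MMP2; ENSG00000157227, chromosome 14) was at 1.66, 1.99 and 1.17 CPM in control and 7.90, 9.48 and 8.82 CPM in KO. It was 5.71-fold higher (log2 fold change 2.51, SE 0.14, edgeR adjusted p 1.0e-14), with no overlap. TIMP2, the inhibitor that takes part in this activation, is among the genes of the protease list below.

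LOX (lysyl oxidase, which crosslinks collagen and elastin; ENSG00000113083, chromosome 5) fell. It was at 1.27, 1.66 and 1.17 CPM in control and 0.655, 0.588 and 0.624 CPM in KO (log2 fold change -1.11, SE 0.24, edgeR adjusted p 2.2e-04). MMP9 (gelatinase B) was at 0.340, 0.0552 and 0.206 CPM in control and 0.306, 0.386 and 0.267 CPM in KO and did not pass the filter. FAP, a protease of activated fibroblasts, had 2 counts in 1 control library and none in KO.

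**Figure D2:**
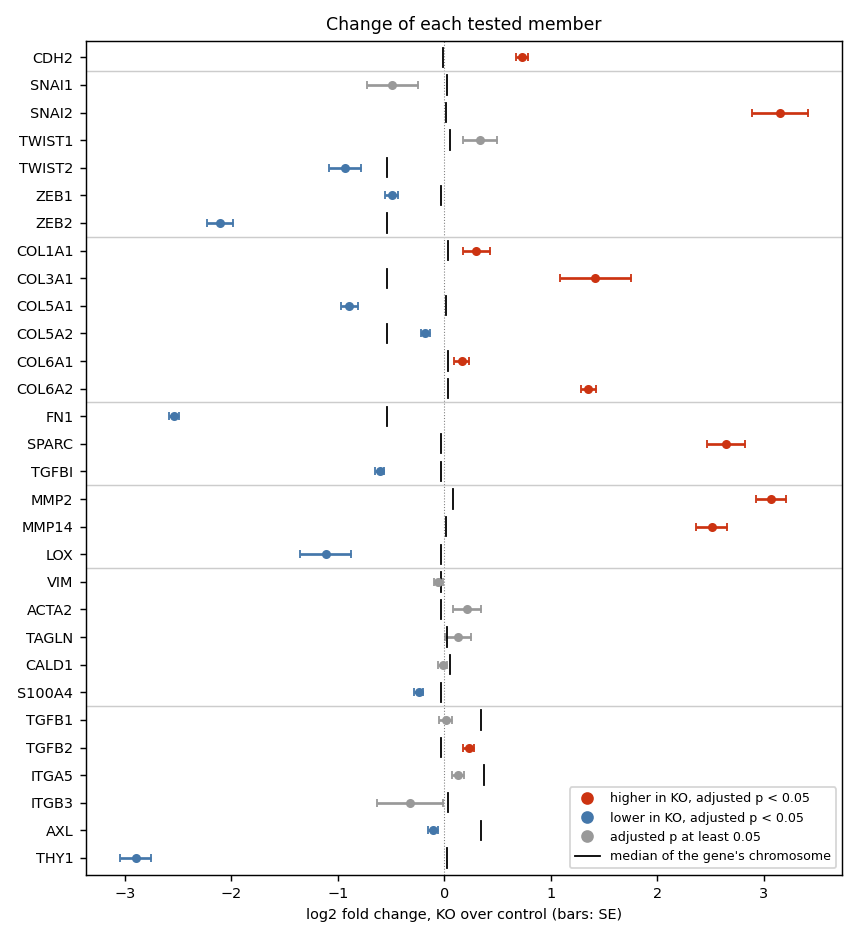
Log2 fold change of KO over control for the 30 tested genes with their SE, coloured by direction where the adjusted p was under 0.05, with a vertical tick at the median of all tested genes of the same chromosome. SNAI2, MMP2, SPARC and MMP14 stand above 2.5 and THY1 and FN1 below -2.5, while the genes of chromosome 2 carry a tick at -0.54.

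The log2 fold changes of the cytoskeletal members lay between -0.24 and 0.21. VIM (vimentin, the intermediate filament of mesenchymal cells; chromosome 10) was at 389, 375 and 378 CPM in control and 391, 354 and 355 CPM in KO. Its groups overlapped, and the 95% interval of the log2 fold change, -0.14 to 0.03, was narrow (edgeR adjusted p 0.28). CALD1 (caldesmon, an actin-binding regulator) was at 156, 141 and 144 CPM in control and 150, 143 and 144 CPM in KO, with an interval of -0.11 to 0.07. Without KO replicate 1, VIM passed at -0.10 (edgeR adjusted p 0.041, over a range of 0.041 to 0.79 across its alternatives).

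ACTA2 (smooth muscle actin) and TAGLN (transgelin), markers of contractile cells, were low and did not pass. ACTA2 was at 3.53, 3.31 and 2.82 CPM in control and 3.71, 3.67 and 3.70 CPM in KO, and TAGLN at 3.91, 3.75 and 3.68 CPM and 4.28, 4.26 and 3.74 CPM. Their 95% intervals were -0.05 to 0.47 and -0.11 to 0.37. Reads of ACTA2 could be shared with other actin genes, whose sequences are close. S100A4 (a calcium-binding protein tied to motility, on chromosome 1) was grouped with the cytoskeletal members and alone among that group passed. It was at 390, 392 and 406 CPM in control and 314, 352 and 340 CPM in KO (log2 fold change -0.24, SE 0.044, edgeR adjusted p 2.6e-05).

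Among ligands, TGFB2 rose slightly and TGFB1 did not pass. TGFB2 (chromosome 1) was at 84.7, 74.1 and 76.9 CPM in control and 92.8, 92.8 and 91.0 CPM in KO (log2 fold change 0.23, SE 0.049, edgeR adjusted p 2.1e-04). TGFB1 (chromosome 19) was at 33.1, 36.1 and 36.3 CPM in control and 32.3, 36.8 and 37.0 CPM in KO, with a 95% interval of -0.11 to 0.13. TGFB1 spanned nearly the same range in both groups.

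The surface protein THY1 (CD90, a marker of fibroblasts and stem cells; ENSG00000154096, chromosome 11) had the largest fall of the 30 genes. It was at 7.31, 7.397 and 7.32 CPM in control and 0.786, 1.08 and 0.980 CPM in KO, which is 7.46-fold lower (log2 fold change -2.90, SE 0.14, edgeR adjusted p 2.8e-16). The control libraries were nearly equal and far above the KO libraries. PDGFRA, a receptor in the fibroblast marker list, went from 1.30 ± 0.12 to 0.128 ± 0.038 CPM (SD, n = 3). The whole list summed to 0.262 to 0.487 CPM in KO, more than PDGFRA alone. LUM, its other gene with counts, was low and did not fall with PDGFRA. The part of such marker shifts in the changes reported here was not tested; DCN was at 0 throughout.

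The remaining receptors moved little. AXL (a receptor tyrosine kinase of mesenchymal-like tumour cells; chromosome 19) was at 327, 354 and 374 CPM in control and 330, 320 and 330 CPM in KO. The groups of AXL overlapped, and its log2 fold change of -0.11 was near the threshold (edgeR adjusted p 0.041; 1.6e-09 to 0.34 over 16 alternatives). It did not pass when any library but control replicate 1 was left out, and was -0.06 without control replicate 3. ITGA5, which pairs with ITGB1 as the fibronectin receptor, was at 39.4, 46.2 and 45.2 CPM in control and 45.4, 47.8 and 49.6 CPM in KO. It did not pass (log2 fold change 0.13, edgeR adjusted p 0.060), but passed as higher in 6 of 16 alternatives, among them the fit with the replicate block (0.13, edgeR adjusted p 0.013), and as lower in 1.

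ITGB3, a subunit of the vitronectin receptor, was at 0.595, 0.883 and 0.447 CPM in control and 0.524, 0.467 and 0.490 CPM in KO. Its interval, -0.94 to 0.29, is wide at 43 control and 46 KO counts. PDGFRB (a growth factor receptor of pericytes and fibroblasts) was at or under 0.243 CPM in each library and was not tested. Without the filter on low counts, none of the 6 untested members with any count passed (edgeR adjusted p 0.27 to 0.64).

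Several members lie on chromosomes whose genes were shifted as a whole. The median log2 fold change of all 1049 tested genes of chromosome 2 was -0.54, that of chromosome 12 was 0.37 (854 genes) and that of chromosome 19 was 0.34 (1137 genes). The members FN1, ZEB2, TWIST2, COL5A2, COL3A1, COL6A3 and FAP lie on chromosome 2, and 5 of these were tested. Relative to the chromosome 2 median, FN1 stood at -1.996 and ZEB2 at -1.57 on the log2 scale (edgeR adjusted p 4.3e-24 and 8.1e-12). TWIST2 stood at -0.39 (edgeR adjusted p 0.028). COL5A2 changed sign to 0.36 (edgeR adjusted p 1.4e-08), and COL3A1 stood at 1.95 (edgeR adjusted p 1.0e-05). On chromosome 19, TGFB1 was at -0.33 (edgeR adjusted p 3.9e-05) and AXL at -0.45 (edgeR adjusted p 1.6e-09), and on chromosome 12, ITGA5 was at -0.24 (edgeR adjusted p 8.5e-04). For members on other chromosomes, taking the chromosome median into account altered the log2 fold change by under 0.1. The cause of the chromosome shifts was not tested.

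The balance of partner genes was compared within each library, as the difference of their log2 CPM, in which library scaling largely cancels. Of 11 pairs, 9 had both genes tested. The exact permutation test of 3 against 3 libraries cannot go below a two-sided p of 0.1, so no pair can pass 0.05, and adjusted over 9 pairs the smallest value was 0.18. Groups did not overlap for 5 pairs, each at that smallest p. The SNAI2 to SNAI1 difference went from -1.73 ± 0.53 in control to 1.71 ± 0.31 in KO (SD, n = 3), and was below 0 in each control library and above 0 in each KO library. SNAI2 had passed the filter through its KO libraries alone. ZEB1 minus ZEB2 went from 2.09 ± 0.060 to 3.66 ± 0.22. COL6A1 minus COL6A2 went from 0.31 ± 0.098 to -0.88 ± 0.047 and COL5A1 minus COL5A2 from -2.46 ± 0.14 to -3.17 ± 0.036. CDH2 minus CDH1 went from 0.20 ± 0.020 to -0.02 ± 0.087, a change of -0.22, since CDH1 rose more than CDH2. MMP14 minus MMP2 did not separate the groups (exact permutation p 0.3), nor did ITGA5 minus ITGB3 (0.2), TGFB2 minus TGFB1 (0.3) or ACTA2 minus TAGLN (0.6).

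**Figure D3:**
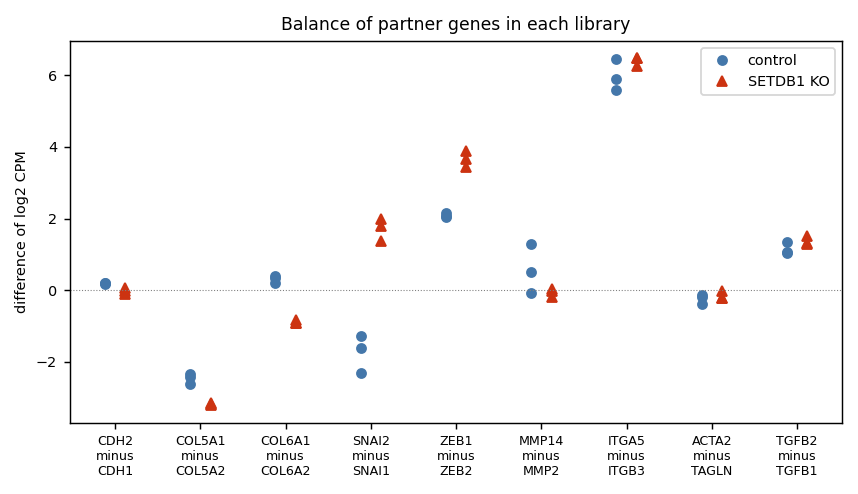
Difference of log2 CPM between the 2 genes of each pair in each library, with circles for control and triangles for KO. The groups are apart for SNAI2 minus SNAI1, where control lies below 0 and KO above 0, for ZEB1 minus ZEB2, and for the collagen V and VI pairs.

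To place the 37 genes, 219 other genes of the same pathways were read from 10 lists made by function, with earlier results known. Of these, 179 were tested, 88 rose and 60 fell (82.7% against 62.8% of all tested genes). Of the 179, 13 passed the filter on low counts through 1 genotype alone, and without them 79 of 166 were higher and 57 lower. The counts of each list are to be read against the 32.8% higher and 30.0% lower of all tested genes. Other matrix glycoproteins and proteoglycans were more often higher, with 19 of 30 higher and 5 lower (median log2 fold change 0.55). Without the 1 gene that passed the filter through 1 genotype alone, 18 of 29 were higher and 5 lower. VCAN (versican, a large matrix proteoglycan) rose from 10.9 ± 0.76 to 205 ± 14.7 CPM, FBLN2 (fibulin 2) from 2.57 ± 0.85 to 16.1 ± 1.02 CPM and EFEMP1 (fibulin 3) from 20.7 ± 1.85 to 98.8 ± 3.26 CPM (SD, n = 3). CCN1 and CCN2, matricellular proteins, fell by 1.31 and 0.46 on the log2 scale, and LAMA3, a laminin chain of epithelial basement membrane, fell from 120 ± 4.46 to 53.8 ± 1.97 CPM.

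Other collagens were mixed, with 6 of 17 higher and 8 lower (median -0.00), against 32.8% and 30.0% of all tested genes. Without the 2 genes that passed the filter through 1 genotype alone, COL11A1 among them, 5 of 15 were higher and 7 lower. COL11A1 (a fibrillar chain) had 0 control and 268 KO counts, which is at least 66.8-fold higher when the control group is set to the floor of 3 counts. As COL11A1 passed the filter through KO alone, it had to differ. COL21A1 rose from 2.38 ± 0.28 to 23.1 ± 1.71 CPM and COL17A1, a hemidesmosome collagen, from 1.28 ± 0.13 to 7.08 ± 0.86 CPM. The basement membrane chains COL4A6, COL4A1 and COL4A2 fell, with log2 fold changes of -1.68, -1.22 and -0.69. Collagen processing and crosslinking enzymes had 10 of 19 higher and 9 lower (52.6% and 47.4%, against 32.8% and 30.0% of all tested genes). With the 1 gene that passed the filter through 1 genotype alone left out, 9 of 18 were higher and 9 lower. TGM2 (a transglutaminase) rose from 188 ± 2.24 to 564 ± 30.3 CPM and BMP1, which cleaves procollagen, from 45.7 ± 3.62 to 97.5 ± 3.73 CPM, and P4HB rose by a log2 fold change of 0.50. PCOLCE2, P4HA3 and LOXL3 fell, with log2 fold changes of -1.30, -1.19 and -1.02. LOXL3 lies on chromosome 2 and stood at -0.478 relative to the median of that chromosome.

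Other matrix proteases and their inhibitors had 15 of 24 higher and 8 lower (62.5% and 33.3%, against 32.8% and 30.0% of all tested genes). Without the 4 genes that passed the filter through 1 genotype alone, MMP28 and ADAMTS9 among them, 12 of 20 were higher and 7 lower. ADAM12 rose from 1.46 ± 0.42 to 15.1 ± 0.69 CPM and MMP28 from 0.429 ± 0.091 to 1.95 ± 0.23 CPM. ADAMTS9 had 1 control and 234 KO counts, a ratio of 175 with an exact 95% counting interval of 31.1 to 6941. ADAM19 and MMP15 fell by 1.24 and 1.00 on the log2 scale. TIMP2 (chromosome 17) is given for its role beside MMP2 and MMP14, outside the rule for named genes and after its values were seen. It fell slightly, from 93.4 ± 2.06 to 77.4 ± 2.66 CPM (SD, n = 3; log2 fold change -0.27, edgeR adjusted p 9.4e-06).

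Other cadherins had 5 of 7 higher and 1 lower (71.4% and 14.3%, against 32.8% and 30.0% of all tested genes). Of the 5, CDH3 and CDH16 passed the filter through KO alone, and without these 2 genes 3 of 5 were higher. CDH6 rose from 0.646 ± 0.21 to 15.6 ± 0.61 CPM and CDH17 from 9.36 ± 0.80 to 51.2 ± 2.83 CPM, while CDH4 fell from 47.3 ± 4.39 to 8.22 ± 0.69 CPM. Of other transcription factors tied to the transition, 8 of 15 were higher and 3 lower (53.3% and 20%, against 32.8% and 30.0% of all tested genes). Leaving out the 1 gene that passed the filter through 1 genotype alone, 7 of 14 were higher and 3 lower. SOX9, SNAI3 and SOX4 rose, by log2 fold changes of 1.05, 0.68 and 0.57, and ETS1 and ID2 fell, with values of -0.79 and -0.67. ID2 lies on chromosome 2, and relative to the median of its chromosome it stood at -0.135, against -0.816 for ETS1. SNAI3 is the third SNAI gene and was at 1.63 ± 0.42 and 2.598 ± 0.30 CPM. Of factors that keep the epithelial state, 3 of 7 were higher and 1 lower. The 57.1% that passed is near the 62.8% of all tested genes, so this count is no result about these factors. EHF rose from 14.1 ± 0.93 to 46.9 ± 1.502 CPM, KLF5 and ELF3 rose by log2 fold changes of 0.48 and 0.28, and GRHL1 (chromosome 2) fell, with a log2 fold change of -1.12.

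Other actin cytoskeleton genes had 8 of 20 higher and 6 lower (70.0%), near the 62.8% of all tested genes. TPM4, ACTN4 and MYH9 rose with log2 fold changes of 0.74, 0.74 and 0.43, and PALLD (palladin) fell from 159 ± 8.52 to 52.5 ± 1.84 CPM. TPM4 and ACTN4 lie on chromosome 19. Relative to the medians of their chromosomes, TPM4, ACTN4 and MYH9 stood at 0.404, 0.395 and 0.378. MYL9 and SMTN fell by 1.64 and 0.71 on the log2 scale. Other integrins and matrix receptors had 7 of 20 higher, near the 32.8% of all tested genes, and 9 lower (45%, against 30.0%). Leaving out the 1 gene that passed the filter through 1 genotype alone, 7 of 19 were higher and 9 lower. ITGB8 rose from 9.05 ± 0.16 to 58.1 ± 2.65 CPM, ITGB4 from 115 ± 9.96 to 555 ± 14.4 CPM and DDR1 from 29.2 ± 2.86 to 81.0 ± 5.12 CPM. ITGA11, a collagen receptor of fibroblasts, fell from 15.8 ± 1.12 to 5.09 ± 0.39 CPM, and ITGB6 and ITGAV, both on chromosome 2, fell by 1.28 and 0.83 on the log2 scale. With the chromosome medians removed, 5 in place of 9 genes of this list were lower.

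Other ligands, receptors and latency proteins had 7 of 20 higher and 10 lower (35% and 50%, against 32.8% and 30.0% of all tested genes). With the 1 gene that passed the filter through 1 genotype alone left out, 7 of 19 were higher and 9 lower. PDGFC rose from 7.31 ± 0.46 to 20.0 ± 0.39 CPM, and LTBP2 and LTBP3, which bind TGF-beta family proteins or microfibrils, rose by log2 fold changes of 1.42 and 1.37. MERTK, a receptor of the AXL family on chromosome 2, fell from 6.06 ± 0.48 to 2.58 ± 0.13 CPM, FGFR1 from 80.7 ± 3.75 to 42.4 ± 1.36 CPM and PROS1, a ligand of that family, from 27.8 ± 2.26 to 17.0 ± 0.59 CPM.

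**Figure D4:**
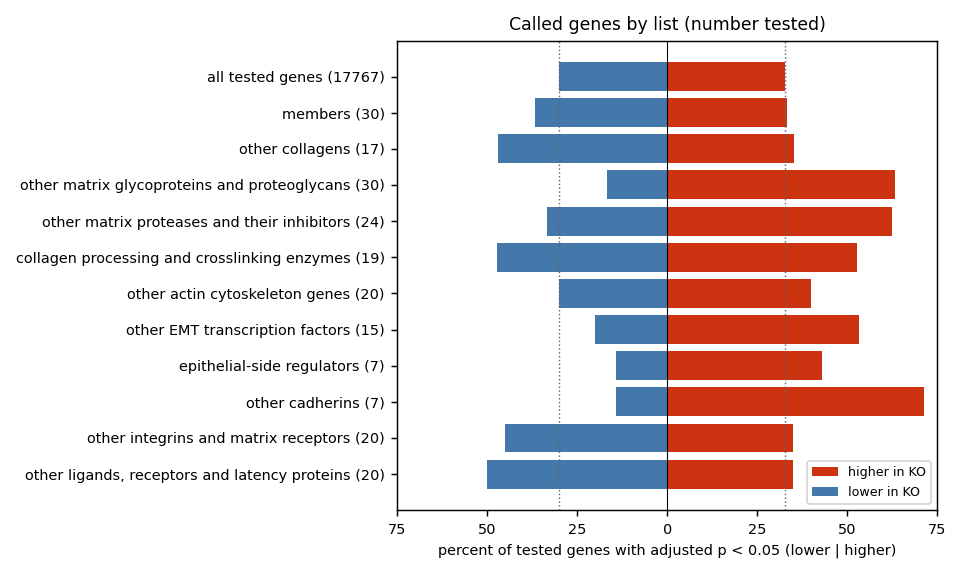
Percent of tested genes with an adjusted p under 0.05, lower in KO to the left and higher to the right, for all tested genes, the 37 members (30 tested) and each of the 10 other lists, with the number tested in brackets. Dotted lines mark the 30.0% and 32.8% of all tested genes; other cadherins and other matrix glycoproteins reach farthest to the right, and 2 of the 7 cadherins passed the filter through KO alone.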

How the data were processed

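RNA-seq of A549 control and SETDB1 KO cells, 3 libraries each, was used. The count table deposited by the authors holds raw counts per Ensembl gene; the submitters' processing notes name STAR 2.6.1c, edgeR 3.30.0 and hg19 with no role given, and the counting strand setting is not given in the sources used here, so antisense reads cannot be told apart. Gene lengths were not used, so the difference within a pair of genes is read only for its change between genotypes, not as an order of their levels. Of 62486 gene rows, 58642 (93.8%) matched a symbol. Chromosome names came from RefSeq GRCh38.p14 for 87.9% of tested genes.

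Genes with about 10 counts in the median library in at least 3 libraries were kept (17767). They were tested with edgeR 4.0.16 (R 4.3.3; TMM, robust quasi-likelihood F-test, genotype only), with Benjamini-Hochberg adjustment over all of them at 0.05. The SE is the absolute log2 fold change over the square root of F, and intervals span 1.96 SE. Log2 CPM of pairs used a prior count of 2. A floor of 3 counts corresponds to 0.0609 to 0.166 CPM per library and covers counting error only.

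The members and lists were chosen with earlier results of these data known. Named genes were SETDB1, each member, CDH1, and per list the 3 largest changes each way among genes that passed with a mean of at least 1 CPM. A few items that this rule names are not reported here. Tested on simulated counts for 17767 genes, of which 200 were changed, the fit recovered 95.3% of changes of 1 on the log2 scale. It recovered 100% of changes of 2, and 6.86% of calls were false. In the data 62.8% of tested genes passed and whole chromosomes were shifted, so these rates need not hold there.

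The 16 alternatives were 2 other scalings, DESeq2 1.42.0, limma 3.58.1 voom, 2 other filters, 6 fits without 1 library, a replicate block, a fit without mitochondrial genes, thinning to equal depth, and removal of chromosome medians. Same-numbered libraries were not paired by the labels. No 2 libraries agreed within sampling noise. ChIP-seq peaks and Hi-C files were not used here, since no hg19 annotation was at hand.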

Additional observations from a re-analysis of the deposited data

How the results depend on the processing

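Of the 21 members that passed, 17 kept call and direction under each of the 16 alternatives that tested them. Counts of members ranged from 7 to 12 higher and from 10 to 12 lower. ACTA2, TAGLN, CALD1 and ITGB3 passed in none. TGFB1 changed sign with upper quartile scaling (-0.023), with chromosome medians removed (-0.33) and when single libraries were left out (lowest -0.026, highest 0.075). CALD1 changed sign with library size only (0.013), DESeq2 (0.002) and no filter (0.02), and ranged from -0.048 to 0.031 when single libraries were left out. COL5A2 (0.36) and ITGA5 (-0.24) changed sign with chromosome medians removed. Without the filter, 6 epithelial-side regulators were higher in place of 3, and with chromosome medians removed 5 other integrins and matrix receptors were lower in place of 9; the cause was not tested. Leaving out single libraries gave 5343 to 5829 higher and 4831 to 5256 lower genes over the whole table, and 8 to 10 higher and 10 to 11 lower members. The stricter CPM filter tested 27 members and thinning 28, so the others have no value there.

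With the replicate number as a block, 11655 genes passed, 21 of 21 members kept their call, and TWIST1 (0.34) and ITGA5 (0.13) passed as well. Deviations of same-numbered libraries correlated at 0.11, 0.064 and 0.047, too weakly for the numbers to pair the samples; 5 of 6 libraries correlated best with their own number, and control replicate 3 with KO replicate 2 (0.048), a hint from the data and not the design. For gene pairs, the smallest p with the block is 0.25. Depth limits the members with under 50 counts over all libraries.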
